A study of Homo sapiens with 8 samples.

Results

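Ferritin and iron handling genes were examined in MDA-MB-231 cells, an established human cell line derived from an estrogen receptor-negative breast cancer, with and without exposure to N-(1-carboxymethyl)-L-lysine (CML), an advanced glycation end product. The set holds 10 genes, FTH1, FTL, TFRC, SLC11A2, STEAP3, PCBP1, NCOA4, ACO1, IREB2 and HMOX1, of the 17649 genes in the table, and each was found by its symbol with 1 row. The genes were chosen by their CPM values in control against CML libraries, with results of that comparison known, so the differences of these 10 genes between the groups are given below as a description and without a p-value. Where genes of the set are counted under a threshold, nothing is read from the count.

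The control group consisted of 4 libraries from cells that received PBS, and the CML group (NCML in the sample titles) of 4 libraries from cells treated with 1 μM CML. Both groups were kept for 48 hours in medium with 5 mM glucose and carried no other allele or agent, and the replicates of each group are numbered 1 to 4. The labels do not say how the numbered samples were separated, so the spread between them may be partly technical. All samples come from 1 cell line at 1 dose and 1 time. The values are normalized read counts on a counts-per-million scale (CPM), and 1 read was worth between 0.0535 and 0.0622 CPM, which puts the estimated reads per library between 16161810 and 18954730. The line markers VIM, CD44, EGFR and AXL lay between 803 and 4243 CPM in every library, PGR and FOXA1 reached at most 0.114 CPM, CDH1 0.954 CPM and GATA3 5.60 CPM, and ESR1 had no row in the table.

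Cells take up iron bound to transferrin through the transferrin receptor, reduce it in the endosome and pass it to the cytosol, where what is not needed at once is stored inside the ferritin shell. A pair of iron regulatory proteins (IRPs) reads the iron level. When iron is scarce they bind hairpins called iron-responsive elements, which blocks translation of ferritin mRNA from its 5′ end and protects the transferrin receptor mRNA at its 3′ end. Iron in ferritin is released when the shell is carried to the lysosome, and further iron comes from the breakdown of heme. Much of this control acts on translation and protein turnover, which mRNA levels do not measure.

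The element itself can be read in the transcripts, and the sites of FTL and TFRC are shown because they place the 2 genes on opposite arms of this control. The search on the sense strand of GENCODE release 44 canonical transcripts was for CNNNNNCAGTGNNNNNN, in which the 5 bases before CAGTGN pair with the last 5 bases, G to U pairs included. No other motif was searched. FTL, on chromosome 19 (chr19:48965309-48966879 in GRCh38.p14), held the letters in its 5′ UTR, within bases 27 to 55 of the transcript. TFRC, on chromosome 3 (chr3:196049284-196082090), held 4 such sites in its 3′ UTR, from base 3289 to base 3833. The positions and the stretches printed include flanking bases on either side of the letters searched, and the capitals mark the loop letters CAGTGN.
FTL, 5′ UTR: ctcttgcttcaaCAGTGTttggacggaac
TFRC, 3′ UTR, bases 3289 to 3317: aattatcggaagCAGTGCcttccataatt
TFRC, 3′ UTR, bases 3693 to 3721: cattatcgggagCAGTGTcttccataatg
TFRC, 3′ UTR, bases 3758 to 3786: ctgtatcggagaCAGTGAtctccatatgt
TFRC, 3′ UTR, bases 3805 to 3833: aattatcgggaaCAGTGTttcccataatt
FTH1 also held the letters in its 5′ UTR, within bases 33 to 61. The other 7 genes of the set did not hold them, which says only that these letters are absent from the transcripts searched. Of 19894 protein-coding transcripts, 0.0905% held the letters in the 5′ UTR and 0.613% in the 3′ UTR, and TFRC was the only transcript with 4 of them, the most found in any transcript.

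Levels in the set ran from the abundant ferritin mRNAs down to mRNAs near the middle of the genes ranked. Levels of different genes were compared per kilobase of the canonical transcript of each gene, and the isoforms in these cells were not examined. On this scale FTL was highest of the set in control cells, with 1631 ± 92.1 CPM per kilobase (SD, n = 4). It ranked 17 among 12928 genes. FTH1 followed with 1358 ± 14.2 CPM per kilobase and rank 24. Without division by length the order of these 2 genes was the opposite, because the FTL transcript has 0.871 kilobases and that of FTH1 1.203. PCBP1 had 185 ± 8.73, TFRC 103 ± 4.12 and NCOA4 81.9 ± 3.49 CPM per kilobase. STEAP3 had 44.3 ± 1.74, ACO1 25.0 ± 1.12 and SLC11A2 19.1 ± 0.778 CPM per kilobase. HMOX1, with 9.44 ± 0.515, and IREB2, with 8.97 ± 0.402, were lowest in the set, and they were the only neighbours in this order whose control libraries overlapped. HMOX1 ranked 6074 and IREB2 6245 among the same 12928 genes, all averaging 1 CPM or more.

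**Figure D1:**
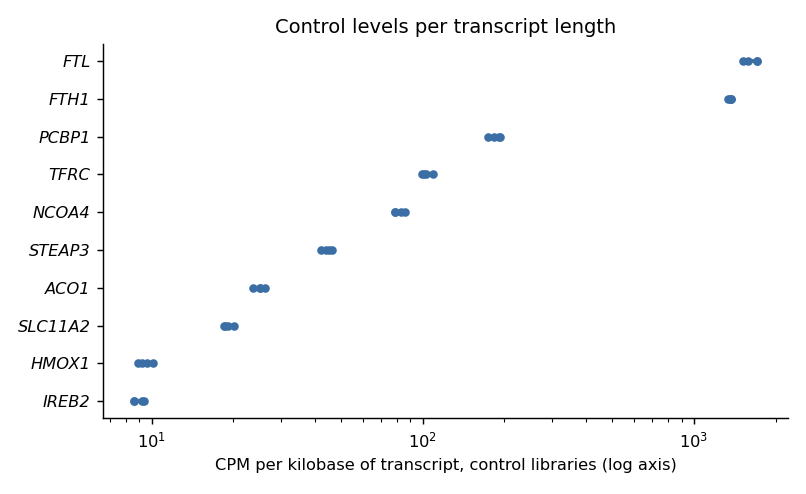
Levels of the 10 genes in the 4 control libraries, as CPM per kilobase of transcript on a log axis, with 1 point per library and a line from the lowest to the highest. FTL and FTH1 lie above 1338 CPM per kilobase in every library, and HMOX1 and IREB2 overlap.

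FTH1 encodes the ferritin heavy chain, which oxidizes iron as it enters the shell, and lies on chromosome 11 (chr11:61964285-61967634 in GRCh38.p14). Its control libraries had 1635, 1645, 1610 and 1647 CPM in the order of their numbers. The CML libraries had 1568, 1533, 1558 and 1563 CPM. Every CML library was therefore below every control library, and the groups were narrow, with a coefficient of variation of 1.04% in control and 0.988% in CML cells, where counting error alone gives about 0.607%. The means were 1634 ± 17.1 CPM (SD, n = 4) and 1555 ± 15.4 CPM (SD, n = 4), a difference of −4.81%. On the log2(CPM + 1) scale used for all fold changes the difference was −0.07 with a standard error of 0.019.

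The light chain gene FTL, whose product helps the iron core to form, had 1481, 1384, 1491 and 1325 CPM in control libraries. It had 1381, 1386, 1422 and 1276 CPM in CML libraries, so the groups overlapped. The means were 1420 ± 80.2 and 1366 ± 63.1 CPM (SD, n = 4 each), a log2 difference of −0.06 with a standard error of 0.051, and both groups had their lowest value in replicate 4. The ratio of FTH1 to FTL CPM was 1.15 ± 0.0760 in control and 1.14 ± 0.0590 in CML libraries (SD, n = 4 each), and the log2 ratio differed by −0.0158 between the groups, less than the spread between replicates. The chains together took between 2971 and 3116 CPM in control libraries and between 2839 and 2980 CPM in CML libraries, with overlap.

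FTH1 has many processed pseudogenes, and 6 of them had rows, which summed to between 3.75 and 4.78 CPM per library, or 0.230% to 0.301% of the FTH1 value. The pseudogenes with a mean of at least 0.5 CPM were FTH1P10 with a mean of 1.41 CPM over the 8 libraries, FTH1P2 with 1.12 CPM and FTH1P7 with 0.647 CPM. The estimated reads of FTH1 were whole, within 0.05 reads, in 1 of 8 libraries, whereas those of the other 9 genes were whole in all 8. The FTH1 pseudogenes were likewise whole in only 1 or 2 of 8 libraries each. How reads shared by near-identical copies were assigned is not given in the sources used here, and the FTH1 value is uncertain to that extent. The pseudogene rows summed to 4.24 ± 0.421 CPM in control and 4.11 ± 0.368 CPM in CML libraries (SD, n = 4 each). BEST1, which shares exon sequence with FTH1 on the opposite strand, had at most 1.24 CPM, and the light chain pseudogene FTLP3 had at most 1.07 CPM.

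TFRC encodes the transferrin receptor. The control libraries had 497, 504, 517 and 544 CPM, and the CML libraries had 559.0, 559.0, 563 and 596 CPM. The groups did not overlap, and in both of them replicate 4 was highest. The means were 516 ± 20.6 and 569 ± 17.9 CPM (SD, n = 4 each), a difference of 10.4% and a log2 difference of 0.14 with a standard error of 0.035. Within the same replicate number the CML value was above the control value by 12.5%, 10.8%, 8.90% and 9.53%, though the numbers were not taken as pairs. The TFRC difference was the widest of the 10 genes in percent and log2, while in CPM FTH1 differed by more, −78.7 against 53.6. The ratio of TFRC to FTH1 CPM was 0.315 ± 0.0124 in control and 0.366 ± 0.0107 in CML libraries (SD, n = 4 each).

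SLC11A2 (chr12:50952263-51028886) encodes DMT1, the transporter that moves iron out of the endosome. Its values were 76.8, 78.7, 76.1 and 83.3 CPM in control and 79.8, 81.0, 84.8 and 88.5 CPM in CML libraries. The groups overlapped because control replicate 4 lay above CML replicates 1 and 2, although each CML library was above the control library of its own number. The numbers were not taken as pairs. A single sign at all numbers was also seen for FTH1, TFRC, PCBP1, NCOA4, ACO1, IREB2 and HMOX1. For FTH1 and TFRC it follows from the lack of overlap between the groups. The share of all genes with a single sign was not computed, so nothing is read from these signs. The SLC11A2 means were 78.7 ± 3.21 and 83.5 ± 3.95 CPM (SD, n = 4 each), a log2 difference of 0.08 with a standard error of 0.042. STEAP3 (chr2:119223834-119265652), the reductase that prepares iron for this transporter, had 189 ± 7.39 CPM in control and 186 ± 8.38 CPM in CML libraries (SD, n = 4 each). Its log2 difference was −0.02 with a standard error of 0.040, and it was the only gene of the set whose difference changed sign in an alternative setting.

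PCBP1 (chr2:70087477-70089203) binds RNA and also carries iron to ferritin. It ranged from 300.3 to 332 CPM in control and from 313 to 337 CPM in CML libraries, with means of 320 ± 15.1 and 328 ± 10.8 CPM (SD, n = 4 each), a log2 difference of 0.04 with a standard error of 0.039. Its paralog PCBP2 had 434 CPM in both groups. PCBP4 had 18.2 CPM in control and 18.8 CPM in CML libraries, and the antisense gene PCBP1-AS1 at the PCBP1 locus had a mean of 11.7 CPM over the 8 libraries. NCOA4 (chr10:46005088-46030623), the receptor that carries ferritin to the lysosome, had 274, 273, 288 and 298 CPM in control and 294, 296, 289 and 305 CPM in CML libraries. Control replicate 4 lay above CML replicates 1 to 3, and the log2 difference was 0.06 with a standard error of 0.033.

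ACO1 (chr9:32384643-32454769) encodes IRP1, which is an aconitase when it holds an iron-sulfur cluster and an RNA-binding protein when it does not. It had 175, 187, 187 and 195 CPM in control and 189, 210.3, 196 and 197 CPM in CML libraries. The groups overlapped, and the log2 difference was 0.09 with a standard error of 0.042. IREB2 (chr15:78437431-78501453) encodes IRP2, which is degraded when iron is ample. It had 56.7 ± 2.54 CPM in control and 54.5 ± 3.20 CPM in CML libraries (SD, n = 4 each), a log2 difference of −0.06 with a standard error of 0.049. The 2 regulators thus had mean differences of opposite sign, each with overlap between the groups.

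HMOX1 (chr22:35381096-35394207) encodes heme oxygenase, which releases iron from heme. It had 15.7, 14.2, 13.8 and 14.9 CPM in control and 14.1, 13.4, 13.8 and 13.3 CPM in CML libraries. The means were 14.7 ± 0.80 and 13.6 ± 0.371 CPM (SD, n = 4 each), a log2 difference of −0.10 with a standard error of 0.045, and control replicate 3 lay below CML replicate 1. It was the most thinly covered gene of the set with 213 to 263 reads per library, and counting error alone gives a coefficient of variation of 6.44% at that depth, against 5.45% observed in control and 2.72% in CML libraries.

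**Figure D2:**
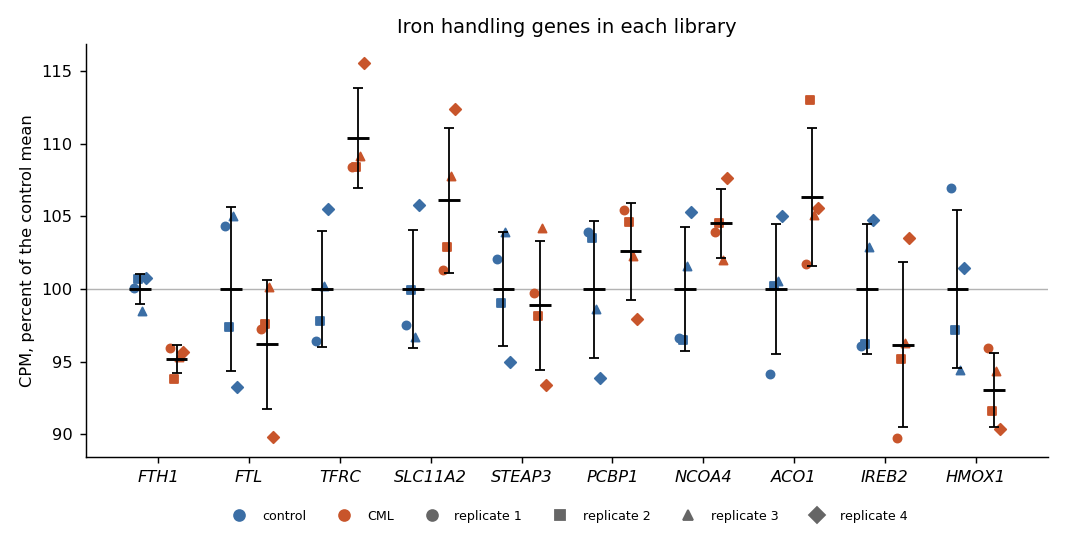
CPM of the 10 genes in each library, as a percent of the gene's control mean, with control libraries in blue, CML libraries in orange and a marker shape for each replicate number. Black bars are means and whiskers the SD of 4 libraries. FTH1 and TFRC are the genes without overlap, and replicate 4 lies at an edge of the group for many of the others.

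In the limma fit across all genes (trend of variance with level, Benjamini-Hochberg adjustment), 0 of the 10 genes had an adjusted p under 0.3, the FDR used in the study for this experiment, beside 0.895% of all genes tested, 0.674% higher and 0.221% lower with CML. FTH1 and TFRC were the 2 genes of the set without overlap between the groups. The share without overlap was 4.34% of the genes averaging 1 CPM or more (3.04% higher and 1.3% lower with CML) and 3.78% of all genes. Nothing is read from these counts, since the set was proposed with this contrast in view. The mean difference was above 0 for 5 genes and below 0 for 5, and the median log2 difference was 0.01, as over all genes averaging 1 CPM or more. In these bulk samples, less of an mRNA per cell and fewer cells that hold it cannot be told apart.

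Replicate 4 differed from the other libraries of both groups in a way that went with base composition. In control replicate 4, FTL was −8.78% and STEAP3 −6.60% from the mean of the other 3 control libraries, while SLC11A2 was 7.84% and NCOA4 7.20% above it. In CML replicate 4, FTL was −8.65% and STEAP3 −7.23% from the other 3, and IREB2 was 10.4% above them. Transcripts of these genes range from 38.2% GC for IREB2 to 57.7% for HMOX1. HMOX1 was an exception in control, where replicate 4 lay 1.93% above the others, and in CML it was −3.80% from them. Across the 10 genes, which share these libraries, Pearson's r between GC content and this percent difference was −0.839 in control and −0.936 in CML. The part of this pattern in the differences between groups was not tested apart from the values that follow. FTH1, in the middle of the GC range, lay 1.05% and 0.647% above the other libraries of its group. The comparison was not made for the other replicate numbers, so the pattern is not shown to be particular to replicate 4. Control replicate 1 had the lowest control value of TFRC, ACO1 and IREB2 and the highest of PCBP1 and HMOX1.

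**Figure D3:**
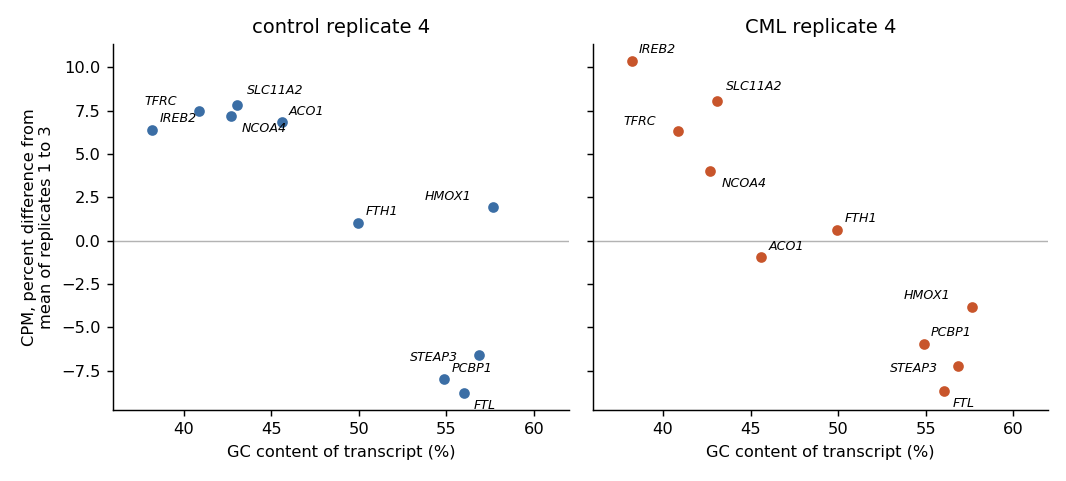
Percent difference in CPM of replicate 4 from the mean of replicates 1 to 3, for control (left) and CML (right), against the GC content of the transcript, with 1 point per gene. Genes of low GC content such as IREB2 and TFRC lie above 0 and genes of high GC content such as FTL and STEAP3 below it, while FTH1 lies near 0 and HMOX1, highest in GC content, lies at 1.93% in control and −3.80% in CML.

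Without replicate 4 of both groups the log2 difference was −0.07 for FTH1 and 0.15 for TFRC. With a trend on GC content and length taken out of each library it was −0.08 with a standard error of 0.017 for FTH1 and 0.12 with a standard error of 0.018 for TFRC. Over all 16 alternatives the log2 difference lay between −0.11 and −0.06 for FTH1 and between 0.12 and 0.17 for TFRC. The range was −0.09 to −0.02 for FTL. Under some of these settings members of the set fell under an adjusted p of 0.3, and these are named with the limits.

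**Figure D4:**
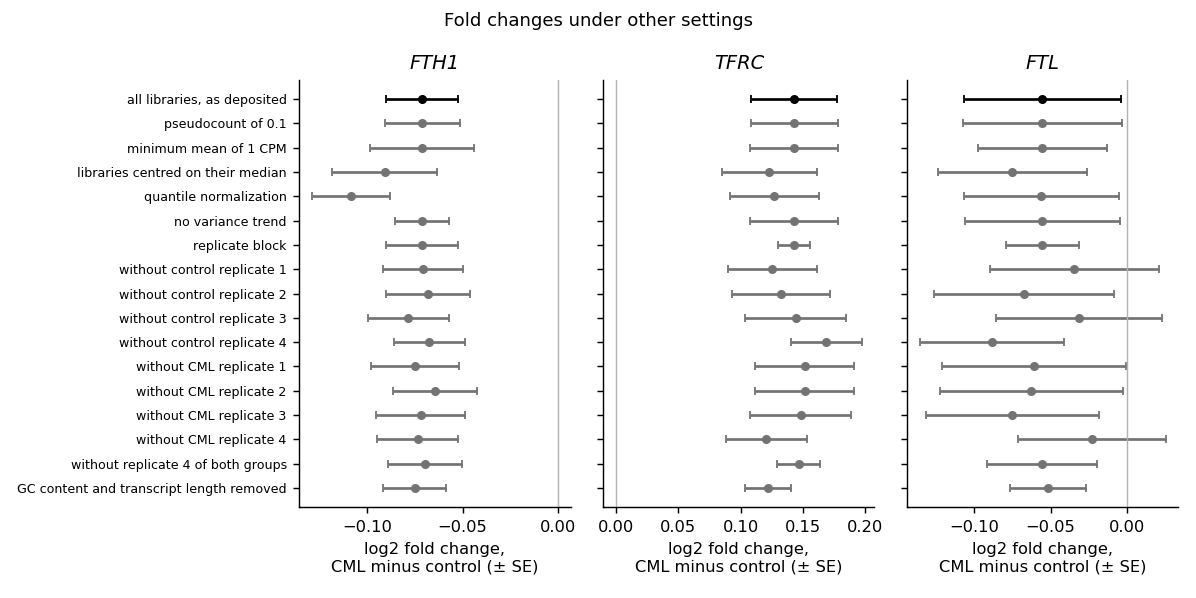
Log2 fold changes of FTH1, TFRC and FTL, CML minus control, with standard errors, for all libraries as deposited (black) and for 16 alternative settings (grey). FTH1 stays below 0 and TFRC above 0 in every setting, while the FTL interval of 1 standard error reaches 0 in some of them.

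The wider iron system was followed with 107 other genes in 9 lists, of which 95 had rows and 90 averaged 1 CPM or more. In the same limma fit 0 of the 95 had an adjusted p under 0.3, in either direction, and the smallest adjusted p was 0.381. At an unadjusted p under 0.05 there were 8, which is 8.42% of the 95 beside 7.66% of all genes, with 4 higher and 4 lower. The groups did not overlap for 3 of the 90 genes, or 3.33% beside 4.34% of all genes at that level. The median log2 difference of the 90 genes was 0.02, against 0.01 over all genes at that level.

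In the mitochondrion, where iron enters heme and iron-sulfur clusters, 20 of 21 listed genes averaged 1 CPM or more. Of these, 12 differences were above 0 and 8 below. ABCB10, a transporter of the inner mitochondrial membrane linked to heme synthesis, had 16.2 ± 0.692 CPM in control and 18.7 ± 1.04 CPM in CML libraries (SD, n = 4 each). These groups did not overlap, and the log2 difference was 0.19 with an adjusted p of 0.381 from limma. The iron importer gene SLC25A37 (mitoferrin-1) had 320 ± 2.63 CPM in control and 306 ± 8.01 CPM in CML libraries (SD, n = 4 each), again without overlap, with a log2 difference of −0.07 and an adjusted p of 0.474. ISCU, the scaffold for cluster assembly and named here after its values were seen, was the third gene without overlap, with 94.0 ± 2.64 and 89.4 ± 1.79 CPM (SD, n = 4 each) and an adjusted p of 0.508.

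Cytosolic cluster assembly had 11 genes, with 8 differences above 0 and a median log2 difference of 0.03. CIAO1, of the targeting complex, had 95.9 ± 4.58 and 99.3 ± 1.13 CPM, and CISD1, a cluster protein of the outer mitochondrial membrane, had 31.6 ± 3.50 and 34.1 ± 3.04 CPM (SD, n = 4 each; adjusted p of 0.831 and 0.897 from limma). In heme synthesis 9 of 10 genes had a row, and ALAS2, the erythroid form of the entry enzyme, had none. FECH, which inserts iron into the porphyrin, had 30.2 ± 0.850 CPM in control and 28.1 ± 1.22 CPM in CML libraries (SD, n = 4 each), with overlap between the groups and an adjusted p of 0.553 from limma.

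Of the genes for export, SLC40A1 encodes ferroportin, the iron exporter, and had 11 to 30 reads per library. It had 1.67, 1.36, 1.81 and 1.65 CPM in control and 1.10, 1.18, 0.670 and 1.49 CPM in CML libraries, with overlap and an adjusted p of 0.587 from limma. ABCG2, a porphyrin and drug exporter, had 6.45 ± 0.724 and 7.68 ± 0.742 CPM (SD, n = 4 each), with an adjusted p of 0.639. The iron hormone HAMP and the copper oxidases CP, HEPH and HEPHL1 had no row in the table. Among uptake genes other than the set, SLC39A14, a transporter of iron not bound to transferrin, had 529 ± 12.2 and 542 ± 6.49 CPM, and FLVCR2, a transporter first linked to heme, had 1.36 ± 0.268 and 1.12 ± 0.212 CPM (adjusted p of 0.796 and 0.838).

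FBXL5, the iron-sensing subunit that marks IRP2 for degradation, had 68.9 ± 2.37 CPM in control and 71.3 ± 2.07 CPM in CML libraries, and CUL1, the scaffold of the same ligase, had 68.0 ± 1.93 and 71.3 ± 2.31 CPM (SD, n = 4 each; adjusted p of 0.821 and 0.667 from limma). Of the regulators of heme breakdown, BACH1, the heme-binding repressor of HMOX1, had 287 ± 16.1 and 298 ± 12.5 CPM, and MAFF, a small partner of such factors, had 131 ± 6.64 and 137 ± 4.41 CPM (adjusted p of 0.897 and 0.796). Of the other mRNAs with an iron-responsive element, EPAS1, which encodes HIF-2α, and CDC42BPA, a kinase gene, had log2 differences of 0.07 and 0.08 with adjusted p of 0.558 and 0.881. In the ferroptosis list, which covers cell death through iron-driven lipid oxidation, 9 of 14 differences were above 0. SAT1, of polyamine breakdown, had 212 ± 8.32 and 219 ± 3.44 CPM, and VDAC3, a channel of the outer mitochondrial membrane, had 53.6 ± 3.16 and 56.9 ± 2.44 CPM (adjusted p of 0.804 and 0.794).

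**Figure D5:**
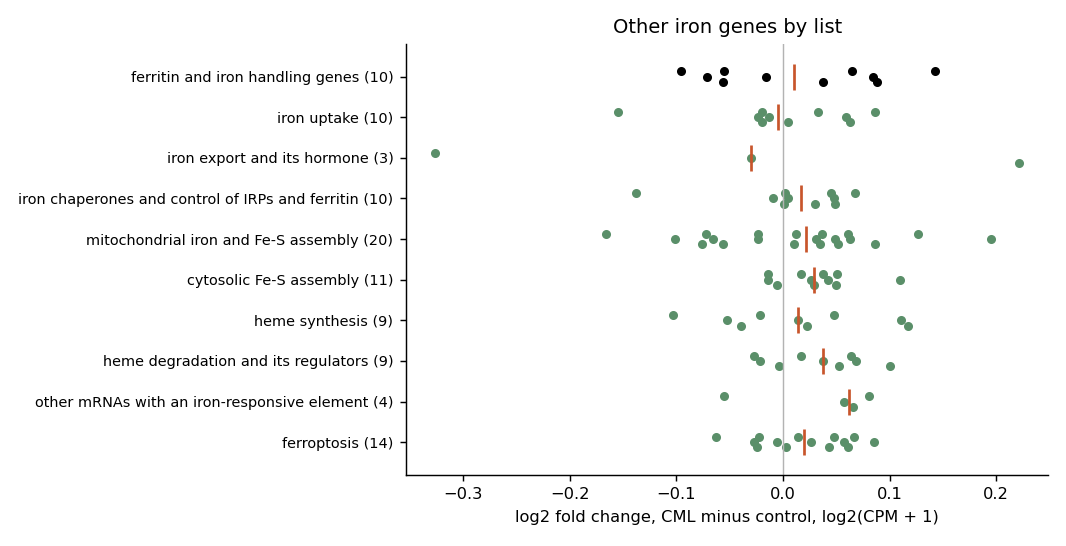
Log2 fold changes, CML minus control, of the 10 ferritin and iron handling genes (black) and of the other iron genes averaging 1 CPM or more (green), by list, with the number of genes in parentheses and the median as an orange line. Apart from SLC40A1 at −0.33 and ABCG2 at 0.22, the points lie between −0.17 and 0.19, and the list medians between −0.03 and 0.06.

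The genes whose values across the 8 libraries were most like those of FTH1, among 9409 genes averaging 10 CPM or more, were U2AF1L4 (Pearson's r = 0.947), CABLES1 (0.943), PABPC1L (0.942), TM4SF19 (0.919) and SLC35E2B (0.913). All 5 had lower means in CML libraries, as FTH1 did, for instance 88.3 CPM in control and 75.1 CPM in CML for PABPC1L. That direction came with choosing genes like FTH1, whose groups did not overlap, and is not a further result. The genes most like FTL were CCDC97 (0.976), ZNF212 (0.973), PTK7 (0.969), RXRA (0.969) and VPS18 (0.967). The 2 ferritin chains had r = 0.190 with each other, and FTL had r = 0.923 with STEAP3 and −0.815 with SLC11A2. FTH1 had r = 0.758 with HMOX1 and −0.755 with TFRC. These correlations describe 8 libraries that share the group difference and the replicate 4 pattern.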

How the data were processed

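RNA was isolated from 4 control and 4 CML samples and sequenced. The labels name both NextSeq and HiSeq, and the authors' methods for the CML-exposed cells name HiSeq. The deposited values are CPM in 17681 rows. Per the labels, the authors used edgeR and hg38. The authors' methods section on tumors, xenografts and cultured cells, which begins from tumor RNA, names Tophat, hg19 and an Ensembl annotation. It does not say whether these libraries were treated so, its build differs from the hg38 of the labels, and the counting tool is not given in the sources used here. The same section has the authors' CPM values scaled by TMM factors of edgeR, with genes kept at 0.5 CPM in 2 samples, and 2966 rows of this table did not reach that limit, so that filter was not applied to it in this form. Library columns were assigned by their titles, and 0 value columns were left unused.

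Rows of 1 symbol were averaged, which left 17649 genes, and log2(CPM + 1) was compared with limma 3.58.1 in R 4.3.3, over all 8 libraries without covariates, at an adjusted p of 0.3. The CPM value of 1 read was found from the regular steps of low values. Between 85.1% and 86.1% of values above 0 were whole reads within 0.02, so the counts are estimates and no count test was run. Transcript length and GC content came from GENCODE release 44 canonical transcripts, and gene positions from RefSeq for GRCh38.p14. Figures were drawn with matplotlib 3.10.9.

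The 10 genes and the 9 lists were chosen with earlier results of these data known. Named beside the 10 genes are, per list, every gene with an adjusted p under 0.3 and the 2 genes of at least 1 CPM with the smallest p, ferritin and PCBP relatives of at least 0.5 CPM, and the 5 genes most like FTH1 and FTL. The values of 1 gene that this rule names are not reported here. Genes under these limits that are named were chosen after their values were seen. The alternatives were a mean of at least 1 CPM, a pseudocount of 0.1, median centring, quantile normalization, no variance trend, a replicate block, each library left out, replicate 4 left out of both groups, a threshold of 0.05 and removal of GC content and length.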

Additional observations from a re-analysis of the deposited data

Results flagged for a closer look

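TFRC in CML replicate 4 had 596 CPM, and the other CML libraries had between 559 and 563 CPM. The gap between this library and the nearest other was 0.898 of the range of the group, above Dixon's critical value for 4 samples. It was singled out from 22 groups of 4 libraries, of which chance gives about 1.1. The log2 difference of TFRC between the groups was 0.12 without this library.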

How the results depend on the processing

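The number of genes with an adjusted p under 0.3 from limma was 158. It was 73 after median centring, 825 after removal of GC content and transcript length, 321 without replicate 4 of both groups, and 0 at a threshold of 0.05. With each library left out in turn it lay between 20, without CML replicate 2, and 690, without control replicate 4. Of the other iron genes, 0 passed, and the number was 1 after quantile normalization (SLC25A37), 2 without replicate 4 of both groups (FLVCR2 and SKP1) and 4 after removal of GC content and length (among them ABCB10, ISCU and SLC25A37). It lay between 0 and 3 with each library left out, where the 3 without control replicate 4 were ABCB10, CIAO1 and PTGS2. Of the 10 ferritin and iron handling genes, 0 passed, and the number was 1 with a minimum mean of 1 CPM (TFRC, among 141 genes in all), 1 after quantile normalization (FTH1, among 144), 1 without the variance trend (FTH1, among 164), 1 without replicate 4 of both groups (TFRC) and 3 after removal of GC content and length (FTH1, TFRC and ACO1). It lay between 0 and 2 with each library left out, where the 2 without control replicate 4 were FTH1 and TFRC. The minimum mean of 1 CPM left 13047 genes to test and the removal of GC content and length 12928, against 17649 in the other settings. Nothing is read from the counts of the 10 genes, since the set was proposed with this contrast in view. The cause of these changes was not tested.

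With the replicate number as a block, 189 genes passed, among them 3 of the other iron genes (ABCB10 and ISCU among them) and 1 of the 10 (TFRC). Deviations of same-numbered libraries from their group means correlated at 0.199, −0.0303, −0.0645 and 0.334 for numbers 1 to 4, with a mean of 0.110. Of the 8 libraries, 4 correlated best with their own number. These values do not settle whether the numbers mark pairs. The numbers were not taken as pairs because the labels do not say that they are. Of 160 values of the 10 genes under the alternatives, 158 moved by less than 1 SD between replicates. The exceptions were FTH1 after median centring, at −0.09, and after quantile normalization, at −0.11. The sign changed in 2 of the 160, both for STEAP3, and the log2 ratio of FTH1 to FTL stayed within 1 SD throughout. The reads per library behind the least covered genes described were 11 to 30 for SLC40A1 and 213 to 263 for HMOX1.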
